A study of Mus musculus with 24 samples.

Results

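The piRNA processing and trimming factors examined here were 10 genes, chosen by name as genes of piRNA biogenesis: Pld6, Mov10l1, Asz1, Gpat2, Henmt1, Pnldc1, Mael, Fkbp6, Tex15 and Spocd1. All 10 were found among the 55401 genes of the CB tables and the 55364 genes of the round spermatid tables, and all 10 passed the filter on low counts in both kinds of library. The libraries came from testes of mice with a knock-in allele of Ddx4, which encodes the germ cell RNA helicase also called VASA, in homozygous, heterozygous and wild-type form; what the allele changes in the protein, the ages of the mice and whether libraries of a group came from separate animals are not given in the labels. RNA of round spermatids, the haploid germ cells that follow meiosis, was sequenced from 2 homozygous, 2 heterozygous and 2 wild-type libraries, made from 1 ug of total RNA. RNA of CB, an abbreviation that the labels do not spell out, was sequenced from 3 homozygous and 3 heterozygous libraries, made strand-specifically from 25 ng of RNA, and its cell type is labelled only as germ cells. All samples were digested from whole testis and none was from a wild-type CB preparation, so CB genotypes can be compared only with each other.

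piRNAs are small RNAs that bind PIWI proteins and guide the silencing of transposons and the cleavage of other transcripts in germ cells. Long single-stranded precursors are unwound and handed to the surface of mitochondria, where an endonuclease cuts them into pieces with the 5′ end of the future piRNA. The piece, held by a PIWI protein, is then trimmed at its 3′ end and capped there with a methyl group. Much of this takes place in germ granules, and in fetal germ cells a nuclear branch of the pathway directs DNA methylation to transposons.

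Total counts were 15.3 to 24.9 M in round spermatid libraries and 14.2 to 16.5 M in CB libraries. A pair of libraries stood apart from the others of their kind. In wild-type spermatid library 1, transcripts under 1000 bases took 20.2% of counts, against 11.2% to 12.7% in the other 5 libraries. The 2 wild-type spermatid libraries differed by a chi-square over its degrees of freedom of 95. It was 2.47 between the heterozygous and 3.66 between the homozygous spermatid libraries. Every spermatid comparison shared a fit that held the wild-type pair. Heterozygous CB library 1 differed from the other heterozygous CB libraries by a chi-square over its degrees of freedom of 28.6 and 28.5, against 5.27 between those 2 libraries. All marker genes of the 6 germ cell and somatic lists were detected in both kinds of library, and none was at 0. Summed round spermatid markers were 10040 to 10270 CPM (counts scaled to library totals with TMM factors) in homozygous spermatid libraries, 9493 to 10020 in heterozygous and 10170 to 21030 in wild-type libraries, where library 1 held the high value. Marker sums of other cells also moved with genotype in round spermatid RNA. Spermatogonial markers summed to 144.2 to 153.2 CPM in homozygous, 122.0 to 125.2 in heterozygous and 107.4 to 110.1 in wild-type libraries. Macrophage markers summed to 31.6 to 32.4 CPM in homozygous, 22.8 to 24.1 in heterozygous and 14.1 to 15.2 in wild-type libraries, and Leydig cell markers to 15.6 to 17.3, 9.17 to 10.2 and 6.54 to 9.48 CPM. In CB RNA, Leydig markers summed to 150.6 to 164.6 CPM in homozygous libraries and 80.2 to 141.5 in heterozygous libraries, macrophage markers to 11.95 to 14.4 and 5.80 to 11.3, and round spermatid markers to 951 to 996 and 1178 to 1816. Sertoli markers were lower in homozygous than in heterozygous libraries of both kinds, with 98.1 to 108.3 CPM in homozygous, 130.5 to 133.4 in heterozygous and 86.4 to 121.5 in wild-type spermatid libraries, and 352.2 to 355.7 CPM in homozygous and 363.8 to 408.4 in heterozygous CB libraries. Pachytene spermatocyte markers summed to 4004 to 4014 CPM in homozygous, 3503 to 3539 in heterozygous and 3829 to 3887 in wild-type spermatid libraries. Without Tex101, a gene of that list, these sums were 3488 to 3528, 3477 to 3513 and 3803 to 3854 CPM. The homozygous libraries then lay below the wild-type ones and overlapped the heterozygous ones. The CB genotypes overlapped with and without Tex101. No other list was summed again without a single gene, so its sum may also rest on few of its genes. The part of these cells in the differences below was not tested, and in bulk RNA fewer cells of a type and less RNA per cell cannot be told apart.

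Ddx4 itself separated the homozygous spermatids from the others but not the CB genotypes. In round spermatids it reached 120.8 and 129.5 CPM in homozygous libraries, 406.4 and 402.6 CPM in heterozygous libraries, and 443.2 and 521.2 CPM in wild-type libraries. The homozygous libraries lay below all others, and the log2 change was -1.95 ± 0.124 (SE) against wild type (edgeR quasi-likelihood test, adjusted p = 0.00543) and -1.69 ± 0.123 against heterozygous libraries (adjusted p = 0.0138). Leaving out any heterozygous or homozygous spermatid library ended both calls, and with only the 4 libraries compared the call against wild type was lost too. In CB RNA Ddx4 was at 302.9, 306.5 and 243.9 CPM in homozygous libraries and at 277.5, 312.0 and 364.8 CPM in heterozygous libraries, which overlap (log2 change -0.16, adjusted p = 0.649).

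In round spermatids none of the 10 factors passed the threshold of an adjusted p under 0.05 in any of the 3 genotype comparisons. In CB RNA, 2 of the 10 rose in homozygous libraries: Henmt1, the methyltransferase that caps the 3′ ends of piRNAs, by 1.43-fold, and Spocd1, a nuclear factor needed for piRNA-directed DNA methylation in mice, by 1.64-fold. The other 8 CB values lay between a log2 change of -0.23 and 0.16. Set against all genes, 1.72% of the 19335 genes tested in CB RNA were called, 1.16% higher in homozygous libraries and 0.559% lower.

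**Figure D1:**
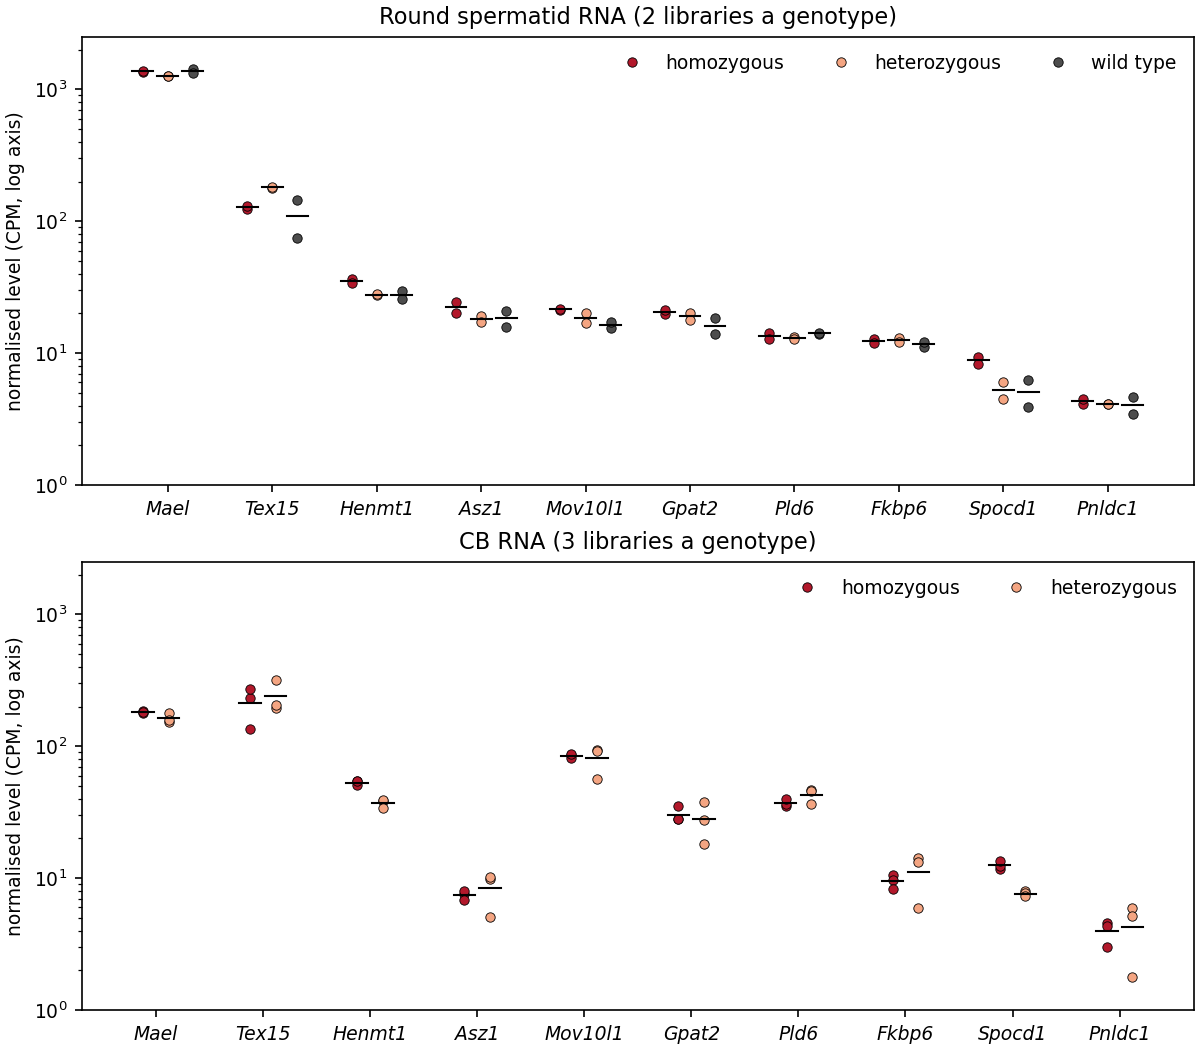
Normalised level of the 10 genes in each library, in CPM on a log axis, with homozygous, heterozygous and wild-type libraries from left to right and a black line at each group mean. Mael lies at 1256 to 1419 CPM in all round spermatid libraries, and in CB RNA the homozygous libraries of Henmt1 and Spocd1 lie above all heterozygous ones.

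The genes spanned a wide range of levels. On the scale of deposited TPM, which is corrected for transcript length, Mael was highest of the 10 in every group, with 1328 ± 46.6 TPM in homozygous, 1230 ± 13.8 TPM in heterozygous and 1168 ± 144 TPM in wild-type spermatids (SD, n = 2 each). It took 90.9%, 90.5% and 91.8% of the summed TPM of the 10 genes in these groups. In CB RNA Mael reached 302 ± 4.66 TPM in homozygous and 244 ± 8.95 TPM in heterozygous libraries (SD, n = 3 each), or 44.0% and 41.5% of the sum. Below Mael, Henmt1 and Tex15 followed in spermatids of all genotypes, with Henmt1 at 29.4 ± 0.601 TPM and Tex15 at 27.1 ± 1.94 TPM in homozygous libraries. In heterozygous spermatids Tex15 came before Henmt1 at 38.4 ± 2.91 and 24.0 ± 2.05 TPM, and in wild-type spermatids at 24.0 ± 9.09 and 21.4 ± 0.799 TPM, where their ranges overlapped. By their means, Asz1, Fkbp6, Pld6, Gpat2 and Mov10l1 followed in that order in every spermatid group, between 21.2 and 7.34 TPM. Pnldc1 and Spocd1 came last at 4.70 TPM or less. Ranges met or overlapped for Asz1 and Fkbp6 and for Pld6 and Gpat2 in heterozygous spermatids. They also overlapped for Fkbp6 and Pld6 in wild-type spermatids, and for Gpat2 and Mov10l1 in homozygous and wild-type spermatids. In homozygous spermatids these last 2 were at 4.04 ± 1.37 and 3.82 ± 0.276 TPM and overlapped.

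CB RNA had a different order. Tex15 had the second highest mean there, at 93.0 ± 15.8 TPM in homozygous and 95.7 ± 31.3 TPM in heterozygous libraries, and Henmt1, Mov10l1 and Pld6 lay together between 51.3 and 80.3 TPM. The range of Tex15 overlapped that of the next gene in each group, at 75.2 to 105.4 TPM against 76.7 to 86.2 TPM for Henmt1 in homozygous libraries, and at 64.2 to 126.8 TPM against 49.7 to 72.6 TPM for Pld6 in heterozygous libraries. Mov10l1, the helicase that binds piRNA precursors, was at 68.7 ± 1.84 TPM in homozygous and 60.8 ± 17.8 TPM in heterozygous CB libraries, while in spermatids it was at 10.5 ± 1.24 TPM in homozygous and 7.80 ± 1.29 TPM in heterozygous libraries. Levels of CB and round spermatid RNA differ in kit and input and were not tested against each other. One RNA with a clone name, CT010467.1, took 6.52% to 6.88% of counts in homozygous and 11.3% to 13.95% in heterozygous CB libraries, and lowers the TPM of every other gene there, so genotypes are compared below by CPM.

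The helicase and the mitochondrial factors stand at the start of processing. Mov10l1 (ENSMUSG00000015365, chromosome 15, 88982891 to 89055152 in GRCm38.p6) was at 21.2 and 21.8 CPM in homozygous spermatids, 20.2 and 17.0 CPM in heterozygous spermatids, and 15.6 and 17.1 CPM in wild-type spermatids. The homozygous values lay above both other genotypes, but the log2 change against wild type, 0.40 ± 0.158 (SE; 95% interval 0.01 to 0.78), was not called (adjusted p = 0.209). It was 0.33 without wild-type library 1 (adjusted p = 0.0811) and 0.47 without wild-type library 2 (adjusted p = 0.0104). In CB RNA Mov10l1 was at 85.9, 80.8 and 86.7 CPM in homozygous libraries and at 56.0, 94.1 and 92.1 CPM in heterozygous libraries, where library 1 alone was low. A small nuclear RNA gene, Gm23737, overlaps Mov10l1 by 159 bases, and reads there are uncertain where strand was not used.

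Pld6, also called MitoPLD, is the mitochondrial endonuclease of the pathway (ENSMUSG00000043648, chromosome 11, 59783893 to 59787657). Its values were 14.1 and 12.9 CPM in homozygous, 13.2 and 12.8 CPM in heterozygous, and 14.1 and 14.3 CPM in wild-type spermatids, with overlapping homozygous and wild-type libraries and a log2 change of -0.07 (95% interval -0.42 to 0.29). In CB RNA it was at 35.5, 36.4 and 39.7 CPM in homozygous and 36.2, 46.3 and 46.0 CPM in heterozygous libraries. The CB log2 change was -0.20 ± 0.124 (adjusted p = 0.509), and without heterozygous CB library 1 it became -0.32 and passed the threshold (adjusted p = 0.0399). Calls over all genes also rose in that fit.

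Asz1, an ankyrin repeat protein on germ cell mitochondria, and Gpat2, an acyltransferase family member of the same membrane that is needed for piRNA production in mouse germ cells, gave no call with all libraries in the fit. Asz1 (ENSMUSG00000010796, chromosome 6, 18050964 to 18109061) was at 20.1 and 24.6 CPM in homozygous, 19.2 and 17.1 CPM in heterozygous, and 20.9 and 15.9 CPM in wild-type spermatids. Gpat2 (ENSMUSG00000046338, chromosome 2, 127425154 to 127436093) was at 19.7 and 21.1 CPM in homozygous, 20.3 and 17.9 CPM in heterozygous, and 13.9 and 18.4 CPM in wild-type spermatids. Wild-type library 1 held the lowest Gpat2 value, and the log2 change of homozygous against wild-type spermatids was 0.28 (95% interval -0.20 to 0.76) for Asz1 and 0.33 (-0.12 to 0.79) for Gpat2. Without wild-type library 1 these were 0.49 for Asz1 and 0.14 for Gpat2. Without wild-type library 2 they were 0.10 for Asz1 and 0.56 for Gpat2. Each of these fits kept a lone wild-type library. In CB RNA Asz1 ranged from 6.80 to 8.01 CPM in homozygous and from 5.09 to 10.3 CPM in heterozygous libraries, and Gpat2 from 27.8 to 35.0 CPM and from 18.0 to 37.8 CPM. Both were lowest in heterozygous library 1.

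Trimming and capping finish the 3′ end. Pnldc1, the exonuclease that trims it (ENSMUSG00000073460, chromosome 17, 12888723 to 12910580), was low throughout, with 80 and 86 counts in homozygous, 79 and 63 in heterozygous, and 85 and 84 in wild-type spermatid libraries. These correspond to 4.11 and 4.51, 4.15 and 4.13, and 4.63 and 3.45 CPM, which overlap between homozygous and wild-type libraries, and the log2 change was 0.10 (95% interval -0.45 to 0.64). In CB RNA it was at 4.61, 3.03 and 4.37 CPM in homozygous and 1.79, 5.92 and 5.18 CPM in heterozygous libraries, and with 25 to 85 counts a library the interval of its log2 change ran from -0.91 to 0.71.

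Henmt1 (ENSMUSG00000045662, chromosome 3, 108939454 to 108979885) was at 54.3, 50.6 and 54.2 CPM in homozygous CB libraries, against 38.3, 39.0 and 33.8 CPM in heterozygous CB libraries. All homozygous values lay above all heterozygous ones. The log2 change was 0.52 ± 0.106 (SE; 95% interval 0.28 to 0.75; edgeR quasi-likelihood test, adjusted p = 0.0389). The call did not depend on heterozygous library 1, without which the log2 change was 0.53 (adjusted p = 0.00432), but it was lost when any one of the other 5 libraries was left out (log2 change 0.44 to 0.56, adjusted p = 0.0999 to 0.236). In spermatids Henmt1 was at 36.8 and 34.1 CPM in homozygous, 27.4 and 27.9 CPM in heterozygous, and 29.4 and 25.7 CPM in wild-type libraries. Here too both homozygous libraries lay above the other 4, with a log2 change of 0.37 ± 0.142 (95% interval 0.02 to 0.71) against wild type whose adjusted p was 0.202. It passed without wild-type library 1, at 0.46 (adjusted p = 0.00346), and without wild-type library 2, at 0.28 (adjusted p = 0.0443). The homozygous against heterozygous change did not differ detectably between CB and spermatid RNA. A joint fit of both kinds gave a difference of 0.21 on the log2 scale (95% interval -0.18 to 0.61, edgeR adjusted p = 0.756).

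Henmt1 shares 8889 bases with the protein-coding gene Fam102b, and the sources used here do not give how strand was treated in the authors' counting. Fam102b was far lower, at 3.58, 5.23 and 5.28 CPM in homozygous and 4.51, 3.83 and 5.32 CPM in heterozygous CB libraries (log2 change 0.04, adjusted p = 0.954). Of 6 annotated Henmt1 transcripts, ENSMUST00000059946, of 1998 bases, led in CB RNA with 50.6 ± 9.60 TPM in homozygous and 31.4 ± 3.27 TPM in heterozygous libraries (SD, n = 3 each). Its share of the gene was 46.0% to 74.0% in homozygous and 58.9% to 63.4% in heterozygous libraries, which overlap.

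The promoter sequences below, from RefSeq (GRCm38.p6; 250 bases before to 50 after an annotated start, 5′ to 3′ on the gene's strand), are shown for Henmt1 as a factor that rose in CB RNA, Mael as the highest of the 10, and Mov10l1 as the factor closest to the median behaviour of the group. Capitals mark CACGTG, an E-box that reads the same on both strands and was picked after some of these sequences had been seen.
Henmt1 (chr3:108940307-108940606, plus strand): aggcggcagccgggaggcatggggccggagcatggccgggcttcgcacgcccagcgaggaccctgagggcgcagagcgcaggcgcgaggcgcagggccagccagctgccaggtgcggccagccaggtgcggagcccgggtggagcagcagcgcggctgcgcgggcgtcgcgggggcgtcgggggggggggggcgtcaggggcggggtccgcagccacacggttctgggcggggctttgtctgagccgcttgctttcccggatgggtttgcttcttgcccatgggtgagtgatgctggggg
Mael (chr1:166238695-166238994, minus strand): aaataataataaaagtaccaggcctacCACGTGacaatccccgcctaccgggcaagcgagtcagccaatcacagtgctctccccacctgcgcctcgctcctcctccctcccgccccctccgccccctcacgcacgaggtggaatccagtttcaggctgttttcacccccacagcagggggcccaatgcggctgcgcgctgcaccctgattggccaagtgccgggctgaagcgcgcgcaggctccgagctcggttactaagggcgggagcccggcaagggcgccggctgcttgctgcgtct
Mov10l1 (chr15:88982744-88983043, plus strand): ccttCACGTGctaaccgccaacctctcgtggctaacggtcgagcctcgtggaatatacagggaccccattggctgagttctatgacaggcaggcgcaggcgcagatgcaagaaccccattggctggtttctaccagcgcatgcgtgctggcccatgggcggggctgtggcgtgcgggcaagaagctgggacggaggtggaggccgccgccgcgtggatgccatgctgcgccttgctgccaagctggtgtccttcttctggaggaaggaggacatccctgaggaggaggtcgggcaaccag
The letters CACGTG occurred in the windows of 4 of the 7 factors with an entry, namely Mael, Mov10l1, Fkbp6 and Pld6, and not in those of Henmt1, Gpat2 and Asz1. By window, 5 of the 9 windows of these factors held them, against 7.15% of all 32851 promoter windows of the same length. Fkbp6, with overlapping windows, and Pld6 counted more than once, and a window of Pld6 lacked the letters. The motif AACNG, the core bound by MYB proteins, searched on both strands, was in all 9 windows of the 7 factors and in 80.3% of all windows. These matches describe letters only, and no binding was measured.

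Mael and Fkbp6 act beside the PIWI proteins. Mael, the mouse Maelstrom gene, whose protein is found in germ granules (ENSMUSG00000040629, chromosome 1, 166201385 to 166238744), was at 1344 and 1385 CPM in homozygous, 1256 and 1260 CPM in heterozygous, and 1419 and 1325 CPM in wild-type spermatids. The log2 change of homozygous against wild-type spermatids was -0.01 ± 0.088 (95% interval -0.22 to 0.21), the narrowest interval of the 10 factors. In CB RNA it was at 179.5, 185.6 and 181.0 CPM in homozygous and 177.9, 151.5 and 159.3 CPM in heterozygous libraries. Every homozygous value was above every heterozygous one, and the log2 change of 0.16 ± 0.099 was not called (adjusted p = 0.513). A single transcript carried 98.0% to 99.3% of Mael TPM in every library.

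Fkbp6, a co-chaperone needed for piRNA production in mouse testis (ENSMUSG00000040013, chromosome 5, 135291704 to 135351809), was at 12.8 and 11.9 CPM in homozygous, 13.0 and 12.2 CPM in heterozygous, and 11.2 and 12.2 CPM in wild-type spermatids. The values of homozygous and wild-type libraries overlapped, with a log2 change of 0.08 (95% interval -0.29 to 0.44). In CB RNA it was at 10.6, 9.71 and 8.26 CPM in homozygous and 5.95, 14.1 and 13.3 CPM in heterozygous libraries, with a log2 change of -0.23 ± 0.274 (adjusted p = 0.774). Without heterozygous CB library 1 the log2 change was -0.54 and passed the threshold (adjusted p = 0.0285), in a fit where calls over all genes also rose.

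Tex15 and Spocd1 belong to the nuclear branch, in which both are needed for transposon methylation in mouse fetal germ cells; Tex15 is also needed for meiotic recombination. Spocd1 (ENSMUSG00000028784, chromosome 4, 129928767 to 129957115) was at 11.65, 12.4 and 13.6 CPM in homozygous CB libraries, against 7.95, 7.72 and 7.29 CPM in heterozygous CB libraries. The groups did not overlap, and the log2 change was 0.71 ± 0.141 (SE; 95% interval 0.40 to 1.03; edgeR quasi-likelihood test, adjusted p = 0.0329). It was 0.73 without heterozygous library 1 (adjusted p = 0.00634), and the call was lost without any one of the other 5 libraries (log2 change 0.66 to 0.77, adjusted p = 0.101 to 0.167). The counts behind these values were 192, 197 and 224 in homozygous and 111, 111 and 104 in heterozygous libraries. Spermatogonial markers summed to 135.7 to 163.7 CPM in homozygous and 88.6 to 184.8 CPM in heterozygous CB libraries, which overlap.

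In spermatids Spocd1 was at 9.40 and 8.33 CPM in homozygous, 6.04 and 4.52 CPM in heterozygous, and 3.92 and 6.29 CPM in wild-type libraries. Both homozygous libraries lay above the other 4, and the log2 change was 0.79 ± 0.278 (95% interval 0.11 to 1.46) against wild type (adjusted p = 0.176) and 0.74 ± 0.280 (0.06 to 1.42) against heterozygous libraries (adjusted p = 0.257). Against wild type the change was 0.49 without wild-type library 1 (adjusted p = 0.0783) and 1.19 without wild-type library 2 (adjusted p = 0.000431). The spermatogonial marker sums given above were also highest in the homozygous spermatids, and their part in these values was not tested. Between CB and spermatid RNA the homozygous against heterozygous changes of Spocd1 differed by 0.03 in the joint fit of both kinds (95% interval -0.63 to 0.69).

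Tex15 (ENSMUSG00000009628, chromosome 8, 33516689 to 33592503) lay farthest from the typical profile of the group. It was at 124.7 and 130.9 CPM in homozygous, 179.1 and 183.0 CPM in heterozygous, and 74.2 and 144.5 CPM in wild-type spermatids. The heterozygous libraries lay above all others, and wild-type library 1 lay far below wild-type library 2. The log2 change of heterozygous against wild-type spermatids was 0.73 ± 0.292 (95% interval 0.02 to 1.44, adjusted p = 0.519), and it was 0.32 without wild-type library 1 (adjusted p = 0.0184) and 1.3 without wild-type library 2 (adjusted p = 3.54e-10). Against wild type the homozygous change was 0.22 (95% interval -0.48 to 0.93), and the direction depended on the wild-type library kept: it was -0.18 without wild-type library 1 (adjusted p = 0.0426) and 0.79 without wild-type library 2 (adjusted p = 7.71e-08). In wild-type library 1 the full transcript of 8405 bases, ENSMUST00000009772, gave 29.7% of Tex15 TPM, against 52.7% to 62.9% in the other spermatid libraries. In CB RNA Tex15 was at 231.9, 270.3 and 135.0 CPM in homozygous and 195.9, 204.4 and 316.1 CPM in heterozygous libraries, which overlap (log2 change -0.17, adjusted p = 0.815).

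**Figure D2:**
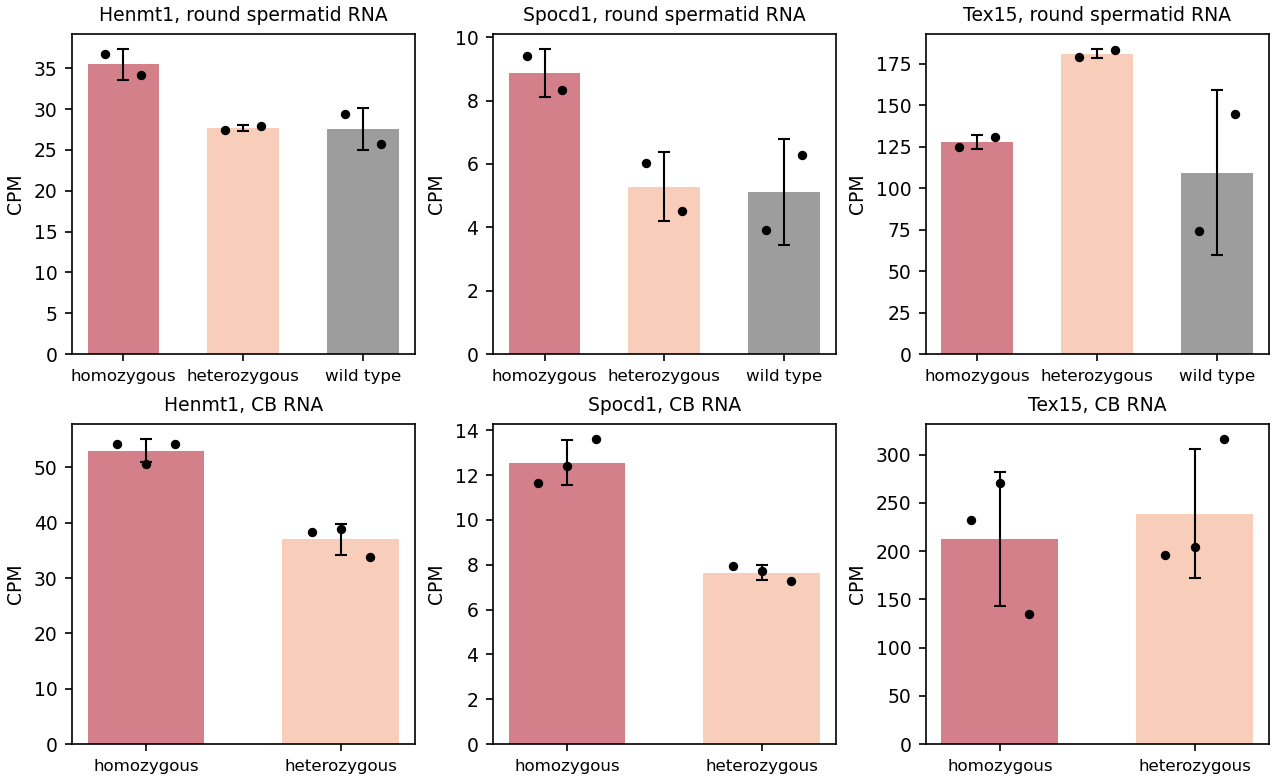
CPM of Henmt1, Spocd1 and Tex15 in round spermatid RNA (top) and CB RNA (bottom), with bars at the mean, error bars of 1 SD and a point for each library. Henmt1 and Spocd1 are highest in homozygous libraries of both kinds, past the test in CB RNA only, whereas Tex15 is highest in heterozygous spermatids and overlaps in CB RNA.

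Counted over the whole group, the homozygous against wild-type comparison of spermatids asked whether piRNA factors change where both Ddx4 alleles are altered. None of the 10 was called, against 2.86% of 17809 genes tested, and their median log2 change was 0.25 with 8 above 0; over all genes tested the median was -0.000581, with 8898 above 0. For 4 factors, Mov10l1, Gpat2, Henmt1 and Spocd1, both homozygous libraries lay above both wild-type ones, which held for 26.7% of all genes, and for none did both lie below. Calls appeared when either wild-type library was left out, together with a large share of all genes. Those fits assumed that the lone wild-type library varied like the other groups. Without wild-type library 1, Henmt1 and Asz1 were called higher and Tex15 lower, among 4927 calls in 18647 genes. Without wild-type library 2, Mov10l1, Gpat2, Henmt1, Spocd1 and Tex15 were called higher and none lower, among 8488 calls in 18826 genes.

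For heterozygous against wild-type spermatids none of the 10 was called, and no gene of the 17809 tested (0%) was called by edgeR, with 1296 at an unadjusted p under 0.05 and 5 calls by DESeq2. The median log2 change of the 10 was 0.04. Without wild-type library 1, Tex15 was called higher, among 161 calls in 18647 genes; without wild-type library 2, Tex15 and Gpat2 were called higher and Mael lower, among 7901 calls in 18826 genes. Tex15 and Fkbp6 were above wild type in both libraries and Mael and Pld6 below, against 22.5% and 22.1% of all genes.

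For homozygous against heterozygous spermatids none of the 10 was called, against 1.73% of all genes. Henmt1, Spocd1, Mov10l1, Asz1 and Mael lay above in both homozygous libraries and Tex15 below, against 32.6% and 32.0% of all genes, and the median log2 change was 0.11. This result depended on the wild-type libraries that shared the fit: with only the 4 libraries compared, Henmt1 (0.36, adjusted p = 0.00502), Mael (0.11, adjusted p = 0.024) and Spocd1 (0.73, adjusted p = 0.00431) were called higher and Tex15 (-0.51, adjusted p = 1.97e-06) lower by edgeR, with 5577 genes called in that fit, against 308 with all 6 libraries.

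**Figure D3:**
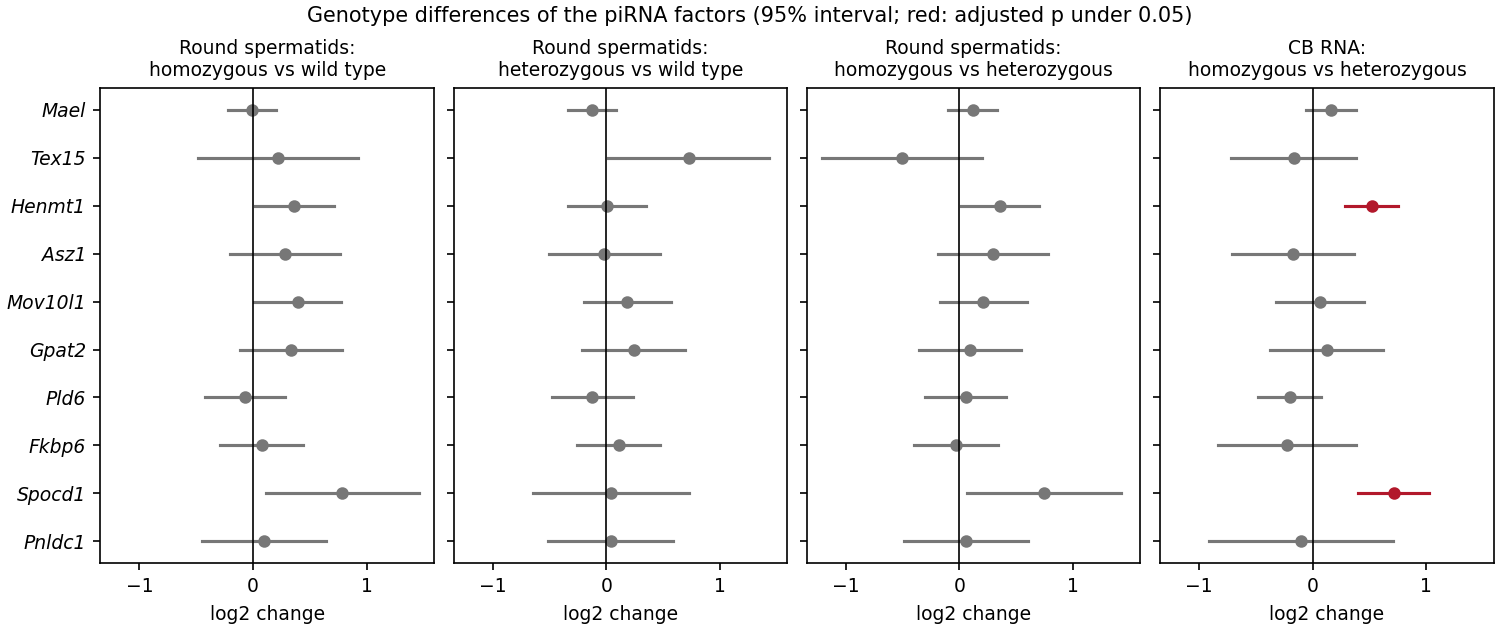
Log2 change of each gene with its 95% interval in the 4 genotype comparisons, red where the adjusted p is under 0.05. Only Henmt1 and Spocd1 in CB RNA are red; in round spermatids the intervals of Henmt1 and Spocd1 lie above 0 in both homozygous comparisons without passing the adjusted threshold.

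For CB RNA the median log2 change of the 10 was -0.02, with 5 above 0. Henmt1, Spocd1 and Mael were higher in all homozygous libraries than in any heterozygous one, which held for 11.5% of all genes, and no factor was lower in all of them, as 9.78% of all genes were. For the difference between CB and spermatid genotype effects none of the 10 was called, against 0.209% of 22002 genes.

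**Figure D4:**
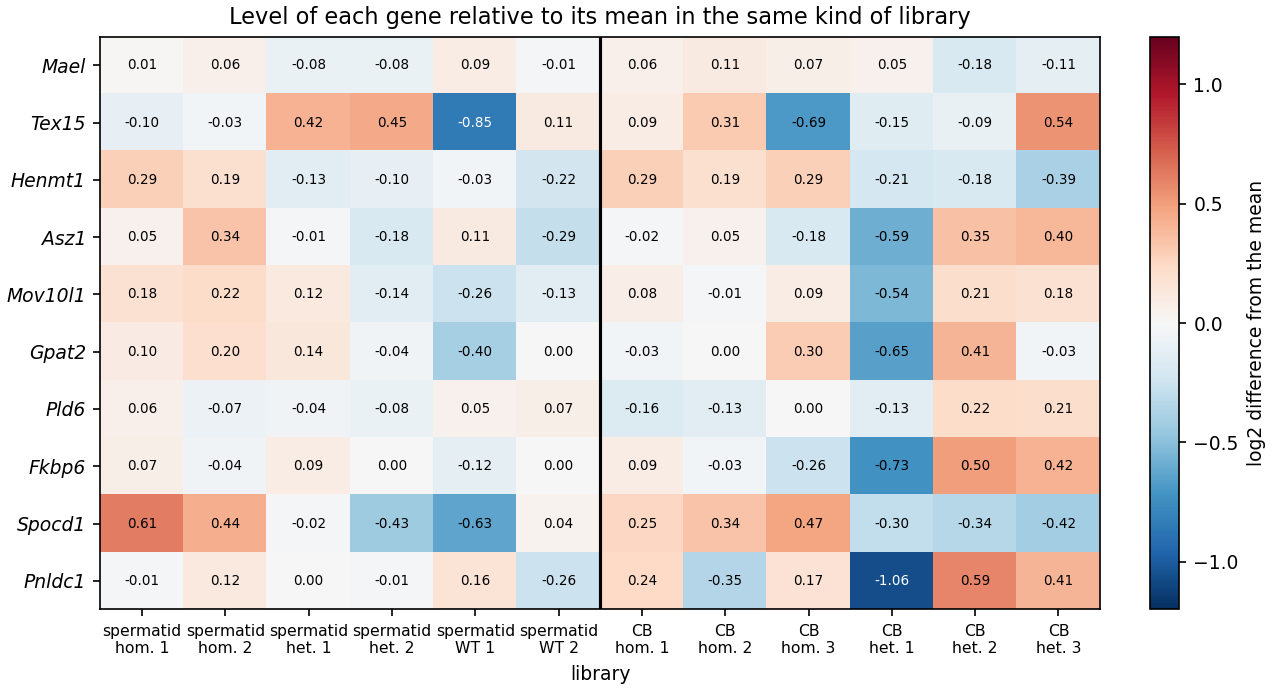
Log2 level of each gene minus its mean over libraries of the same kind, for round spermatid libraries (left of the line) and CB libraries (right), homozygous before heterozygous before wild type. The column of heterozygous CB library 1 is low for Asz1, Mov10l1, Gpat2, Fkbp6 and Pnldc1, and the low Tex15 value of -0.85 is that of wild-type spermatid library 1.

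Heterozygous CB library 1 was low for a subset of the factors. There, Pnldc1, Fkbp6, Asz1, Gpat2 and Mov10l1 were the lowest of all 6 CB libraries, at 0.323, 0.433, 0.504, 0.55 and 0.602 of their mean in the other heterozygous libraries. That is 5 of 10 factors, against 26.4% of all genes tested that were lowest there, and the median ratio was 0.677 for the factors and 0.999 for all genes. Henmt1, Spocd1 and Mael were not reduced there, at ratios of 1.05, 1.06 and 1.14. The same library was highest in summed round spermatid markers, at 1816 CPM, against 1320 and 1178 CPM in the other heterozygous CB libraries. It was lowest in spermatogonial markers, at 88.6 CPM against 174.4 and 184.8, in Leydig markers, at 80.2 against 141.5 and 138.6, and in macrophage markers, at 5.80 against 11.3 and 9.81. Sertoli markers summed to 363.8 CPM there, against 408.4 and 402.0, and pachytene spermatocyte markers to 1961, against 1694 and 1867. The part of these in its low factor levels was not tested.

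The median centred log2 level of the 10 factors was accordingly -0.42 in heterozygous CB library 1, 0.21 and 0.19 in the other heterozygous CB libraries, and 0.02 to 0.08 in homozygous CB libraries. Across the 12 RNA libraries Mov10l1 stayed closest to that median, with a root mean square difference of 0.0925 on the log2 scale, and Spocd1 and Tex15 lay farthest, at 0.386 and 0.418. The 5 genes outside the group that stayed closest to its median profile were Cs (0.0583), Tgoln1 (0.0597), Rhoa (0.0615), Catsperd (0.0658) and Sqstm1 (0.0729), where the median over 16006 genes was 0.313.

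Among 25 other genes of the piRNA pathway, 23 passed the filter in both kinds of library; Piwil4 and Dnmt3c did not, with at most 0.487 CPM in any library. In homozygous against wild-type spermatids 2 of the 23 were higher and 1 lower, with a median log2 change of -0.07. Piwil2, a PIWI protein of prenatal and meiotic germ cells, was at 56.9 and 63.0 CPM in homozygous, 31.1 and 29.7 CPM in heterozygous, and 21.5 and 29.6 CPM in wild-type spermatids, and rose by 1.23 on the log2 scale against wild type (edgeR, adjusted p = 0.0312). Tdrd1, a Tudor domain protein that binds Piwil2, was at 40.0 and 44.8 CPM in homozygous, 24.4 and 25.9 CPM in heterozygous, and 16.5 and 21.8 CPM in wild-type spermatids, and rose by 1.15 (adjusted p = 0.0337). Their homozygous libraries lay above all others, and leaving out any heterozygous or homozygous library ended both calls, as did a replicate block and a fit of only the 4 libraries compared. DESeq2 kept both and also called Dnmt3l and Morc1, whose log2 changes by edgeR were -0.86 and 1.435. The spermatogonial marker sums were higher in homozygous libraries, as Piwil2, Tdrd1 and Morc1 were and Dnmt3l was not. Their part was not tested. The gene called lower by edgeR was Ddx4.

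In heterozygous against wild-type spermatids 0 of the 23 were called by edgeR, with 3 at an unadjusted p under 0.05 and none by DESeq2. Without wild-type library 1 Ddx4 was called there, and without wild-type library 2 Piwil2, Tdrd1 and further genes of the list. Each of these fits kept a lone wild-type library. In homozygous against heterozygous spermatids edgeR called Ddx4 alone with all 6 libraries, and DESeq2 called Tdrd1 and Piwil2 as well. With only the libraries compared, edgeR called Piwil2, Tdrd1 and Morc1, which were higher in homozygous libraries. It also called Ddx4, Piwil1, Tdrd6, Tdrd7 and Dnmt3l, which were lower. That fit called 5577 of the 17293 genes tested, so calls in this list came with a large share of all genes. In CB RNA 1 of the 23 was called: Morc1, needed to silence transposons in mouse male germ cells, was at 9.10, 7.69 and 8.81 CPM in homozygous and 3.37, 4.31 and 4.62 CPM in heterozygous libraries, and rose by 1.05 on the log2 scale without overlap (adjusted p = 0.0174). Its call was lost without any single library other than heterozygous library 1. Without that library Adad2, Tcfl5, Tdrd5 and Tdrd12 were called as well. That fit called 2213 genes over all, against 332 with all 6 libraries.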

How the data were processed

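RNA of 6 round spermatid and 6 CB libraries was used; 12 small RNA libraries were not used here. Per the file headers, the authors deposited for each gene an expected count, TPM and FPKM, and for each transcript also its percent share of the gene's TPM. Expected counts estimate the reads of a gene and can be fractional, and TPM and FPKM are scaled for length and depth, so that a gene can be set beside another within a library. The submitters' processing notes name Trim Galore and the build mm10; the aligner and quantifier are not given here by any label or header.

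Expected counts were rounded and tested over all genes with the quasi-likelihood F test of edgeR 4.0.16 in R 4.3.3 (TMM factors, filterByExpr by group), with Benjamini-Hochberg adjustment over all genes and a threshold of 0.05. One fit held the 6 spermatid libraries, another the 6 CB libraries, and a joint fit of all 12 gave the difference between kinds. CPM are counts over TMM-scaled totals, TPM and transcript shares are as deposited. The test was checked on simulated data with known changes. At a simulated log2 change of 1 it called 17.5% of the changed genes for homozygous against wild-type spermatids. The share was 58.3% for CB RNA and 10% for the difference between kinds. At a change of 2 the shares were 75%, 97.9% and 54.6%. A gene that was not called may therefore still have changed. In these data 10 unchanged genes were also called for homozygous against wild-type spermatids, beside 17 and 72 genes changed by 1 and 2. For CB RNA 12 unchanged genes were called beside 56 and 95, and for the difference between kinds 5 beside 10 and 53. A called gene may thus also be an unchanged one. No pair of libraries in a group was a copy (the lowest chi-square per degree of freedom was 2.47). The labels do not tie libraries to separate animals, so p-values measure the spread between these libraries, which may be technical. Total counts were 14.2 M or more, but the counting error of a gene depends on its own counts, and Pnldc1 had 25 to 86 counts a library.

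The 10 genes, the 25 other pathway genes and the marker lists were chosen with earlier results of these data known. All 10 genes are described; of the other pathway genes those past the threshold are named, and 5 genes outside the group are named by their closeness to its median log2 CPM (prior count 2, centred within kind of library). Alternatives were DESeq2 1.42.0, its size factors, no filter on low counts, removal of each library's trend on transcript length, a replicate block, only the libraries compared, FPKM for TPM, and leaving out each library. Sequences were read from RefSeq windows (GRCm38.p6); Pnldc1, Tex15 and Spocd1 had no entry.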

Additional observations from a re-analysis of the deposited data

Results flagged for a closer look

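Ddx4 was the only result singled out, because its homozygous against heterozygous change differed between CB and round spermatid RNA. In the joint fit the log2 change was 1.59 ± 0.224 (SE) greater in CB than in spermatid RNA (95% interval 1.11 to 2.07, edgeR quasi-likelihood interaction contrast, adjusted p = 0.0122). The separate fits of each kind, with their own scaling factors, gave -0.16 in CB RNA and -1.69 in spermatids. The call was lost with a replicate block and without any one of 6 of the 12 libraries. Kit and RNA input differ between the kinds of library and cannot be told apart from the kind.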

How the results depend on the processing

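The CB calls of Henmt1 and Spocd1 held under DESeq2, its size factors, no filter and removal of the length trend. With only the number of the library shared between groups (same-numbered libraries did not deviate together, r = -0.18 to 0.11), a replicate block left 0 of the 10 factors called in CB RNA, alone or with the length trend removed (adjusted p = 0.14 for Henmt1 and 0.11 for Spocd1 alone), with log2 changes of 0.52 and 0.71. No CB library correlated best with the library of its own number. In spermatids, homozygous against heterozygous, 1 factor (Tex15, lower, -0.42) was called with the length trend removed and 4 with only the libraries compared.

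The number of genes called moved more. For homozygous against wild-type spermatids it was 510, and became 1287 with DESeq2, 1692 without a filter, 2501 without the length trend, 182 with the replicate block, 2078 with block and length together and 15 with only the libraries compared; for heterozygous against wild type, 0 became 5 with DESeq2 and 6 without a filter. For homozygous against heterozygous spermatids, 308 became 796, 912, 1760, 12, 1340 and 5577 in the same order. For CB RNA, 332 became 598 with DESeq2, 882 without a filter, 163 with the block and 151 with block and length, and for the CB minus spermatid difference 46 became 144, 191, 93 without the length trend and 2 with the block. The cause was not tested.

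Some changes that were not called turned sign. Removing the length trend, with or without the replicate block, gave Mael 0.03 and Tex15 -0.08 for homozygous against wild type, and Asz1 0.06 and Spocd1 -0.12 (-0.14 with the block) for heterozygous against wild type. Pnldc1 in CB RNA became 0.02 with block and length, and the CB minus spermatid difference of Spocd1 became -0.04 with DESeq2 or its size factors, -0.1 without the length trend and -0.11 with the block too.

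Leaving out each library in turn gave 0 to 8488 genes and 0 to 5 factors called for homozygous against wild-type spermatids, 0 to 7901 and 0 to 3 for heterozygous against wild type, 0 to 5608 and 0 to 4 for homozygous against heterozygous spermatids, 51 to 2213 and 0 to 4 for CB RNA, and 2 to 188 and 0 for the difference. The high counts came without a wild-type library, or without heterozygous library 1 in CB RNA. A lone library was assumed to vary like the other groups. Log2 changes of the factors that turned sign in at least 1 of these fits are given as ranges. For homozygous against wild-type spermatids these were Pld6 from -0.13 to 0, Pnldc1 from -0.09 to 0.31, Mael from -0.05 to 0.04 and Tex15 from -0.18 to 0.79. For heterozygous against wild-type spermatids these were Asz1 from -0.19 to 0.2, Henmt1 from -0.08 to 0.1, Pnldc1 from -0.15 to 0.26 and Spocd1 from -0.24 to 0.45. For homozygous against heterozygous spermatids these were Pld6 from -0.01 to 0.12, Pnldc1 from -0.01 to 0.12 and Fkbp6 from -0.09 to 0.02. For homozygous against heterozygous CB RNA these were Mov10l1 from -0.15 to 0.19, Gpat2 from -0.12 to 0.41, Pnldc1 from -0.48 to 0.2 and Tex15 from -0.38 to 0.07. For the CB minus spermatid difference these were Mov10l1 from -0.38 to 0.06, Gpat2 from -0.24 to 0.37, Pnldc1 from -0.56 to 0.19, Fkbp6 from -0.53 to 0.07 and Spocd1 from -0.29 to 0.24. Mael stood at 92.1 to 107 times the median factor in spermatids and 6.03 to 7.95 times in CB RNA.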
